A study of Oryza sativa with 6 samples.

Results

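Transcripts of 10 genes whose products fold and check new secretory proteins in the endoplasmic reticulum (ER) were followed in rice (Oryza sativa) anthers, in 3 libraries of the dmd1 mutant and 3 libraries of wild type. The 10 genes were taken by their annotation identifiers from a table of 94013 rows, 37830 of them with an OS annotation identifier. They are the BiP genes BIP1 to BIP5, the oxidative folding genes PDIL1-1, PDIL2-3 and ERO1, and the lectin chaperone genes CRT and CNX. All plants were 3 months old. According to the design text, anthers were taken from tetrad stage up to early microspore stage. It calls the 3 libraries of a genotype biological replicates. The labels give no allele, background or further treatment for either genotype, and DMD1 transcript was not analysed here. Whole anthers hold several cell types, so fewer cells of a type and less RNA per cell cannot be told apart. All levels are FPKM (fragments per kilobase of transcript, scaled to the mapped fragments of the library), a unit that is scaled by length and so can be compared between genes. The file gives identifiers without names, and none of the 57 identifiers used here was matched in the RefSeq gene table, so gene symbols were not checked by identifier.

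BiP is the HSP70 chaperone of the ER lumen. It binds unfolded stretches of proteins as they enter the ER. Protein disulfide isomerases (PDI) form and rearrange disulfide bonds and pass the electrons to the oxidase ERO1, while the soluble calreticulin (CRT) and the membrane-bound calnexin (CNX) hold glycoproteins with a trimmed sugar chain until they are folded. When unfolded proteins build up, the ER membrane sensor IRE1 splices the mRNA of the transcription factor BZIP50 in rice, and BiP transcripts rise. At the stage sampled, the tapetum, the innermost anther wall layer, is a secretory tissue that supplies lipids, proteins and wall material to the microspores.

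Summed FPKM per library was 808227 to 1050340 in dmd1 and 909365 to 1287424 in wild type, and fragment depth is unknown. Rows with at least 1 FPKM in at least 3 of the 6 libraries were tested, which kept 25474 rows. A row passed at an adjusted p under 0.05 (limma on log2(FPKM + 1), Benjamini-Hochberg over all rows tested). By this rule 7.80% of rows were higher and 5.18% lower in dmd1, and 60.1% of the rows that passed were higher. That share was 74.5% after scaling libraries to the same total and 43.8% after median-of-ratios scaling, and the median log2 change of all tested rows was 0.12, 0.29 and 0.02 in the 3 fits. A first principal component (53.9% of the variance) separated the genotypes, and the second (26.7%) set dmd1 library 1 and wild-type library 2 apart from dmd1 library 3 and wild-type libraries 1 and 3. The labels give no batch that matches this split. Summed FPKM of 8 tapetal marker genes was 2322 to 6171 in dmd1 and 24894 to 27454 in wild type, with 1 of 7 tested markers higher and 3 lower. The tapetal marker RTS was listed at 0 in every library but wild-type library 2 (0.176 FPKM). In wild type C6, CYP704B2 and CYP703A3 were the most abundant tapetal markers and led the sum (means 11530, 7960 and 4946 FPKM). The higher marker was TIP2 (mean 252 FPKM in dmd1 and 72.9 FPKM in wild type). EAT1, CYP703A3 and CYP704B2 were the lower ones, and TDR, UDT1 and C6 did not pass. For 5 meiocyte markers the sum was 47.2 to 52.1 in dmd1 and 41.2 to 55.4 in wild type, with 1 of 3 tested markers higher. For 4 green tissue markers it was 90.1 to 142 in dmd1 and 169 to 316 in wild type, with 1 of 4 lower. That one was CAB2R (mean 48.1 FPKM in dmd1 and 157 FPKM in wild type), and the other 3 overlapped between genotypes. The sum of 4 late pollen markers was 36.5 to 67.5 in dmd1 and 102 to 153 in wild type. Its only tested marker, MADS63, was lower (mean 53.8 FPKM in dmd1 and 122 FPKM in wild type) and made up nearly the whole sum.

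Of the 10 ER genes, 8 reached the filter, and none of the 8 was higher or lower in dmd1 (limma, adjusted p between 0.407 and 0.974), against the 7.80% and 5.18% of all tested rows. At an unadjusted p under 0.05 the count was also 0, against 20.4% of rows higher and 10.9% lower. The FPKM ranges of the genotypes overlapped for all 8, while 25.3% of tested rows lay wholly above and 13.1% wholly below wild type in dmd1. Log2 changes of the 8 ran from -0.35 to 0.25, with a median of 0.05. The transcripts were abundant in both genotypes. Summed FPKM of the 10 genes averaged 3057 ± 395 in dmd1 and 3154 ± 905 in wild type (SD, n = 3 each), which was 0.331% ± 0.011 of the library's FPKM total in dmd1 and 0.292% ± 0.030 in wild type. By mean level 7 of the 10 genes stood above at least 98.4% of all rows of the table. Only 25474 of these 94013 rows reached the filter, so the share includes many rows at or near 0.

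**Figure D1:**
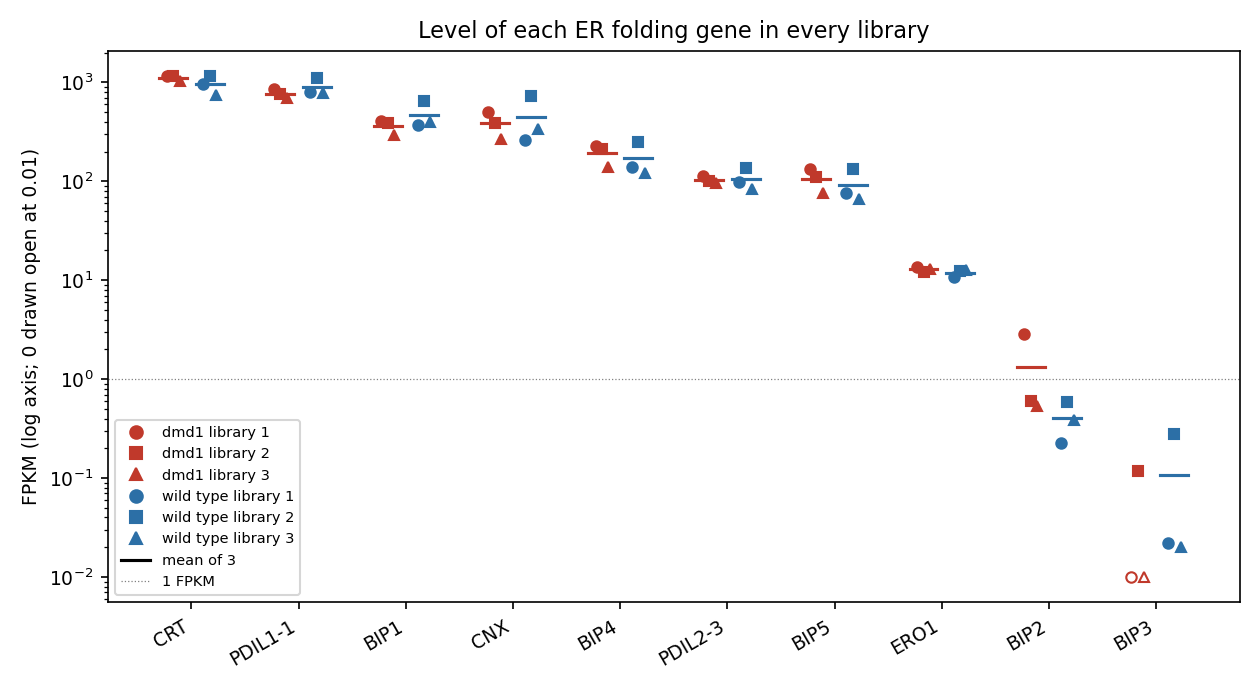
FPKM of the 10 ER folding genes (log axis) in the 3 dmd1 libraries and the 3 wild-type libraries, with symbols for library number, a bar for the mean of 3 where no library is at 0, and open symbols for values of 0. The 8 genes from CRT to ERO1 overlap between genotypes, and BIP2 and BIP3 lie near or under 1 FPKM.

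The same order of levels held in both genotypes with few exceptions. CRT was highest on average, followed by PDIL1-1, BIP1, CNX, BIP4, PDIL2-3, BIP5, ERO1, BIP2 and BIP3. CRT exceeded PDIL1-1 in 5 of 6 libraries, the exception being wild-type library 3. BIP1 and CNX did not differ beyond their spread, since BIP1 was the higher of the pair in 3 of 6 libraries. PDIL2-3 and BIP5 also traded places, with PDIL2-3 the higher in 1 dmd1 library and in all 3 wild-type libraries. The other neighbours kept their order in all 6 libraries, although BIP4 and PDIL2-3 and also BIP2 and BIP3 overlapped across the wild-type libraries.

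BIP1 (OS02G0115900) was the most abundant BiP transcript. It stood at 407, 387 and 291 FPKM in dmd1 libraries 1 to 3 and at 373, 643 and 397 FPKM in wild-type libraries 1 to 3. Wild-type library 2 was the highest of the 6 and dmd1 library 3 the lowest, and the remaining 4 libraries lay between 373 and 407 FPKM. The means were 362 ± 62.3 FPKM in dmd1 and 471 ± 150 FPKM in wild type (SD, n = 3 each), a log2 change of -0.35 ± 0.26 (SE, adjusted p = 0.407 in limma). Its 95% interval, -0.98 to 0.28, corresponds to 0.508 to 1.21 times the wild-type level on the log2(FPKM + 1) scale, so this design did not resolve changes within that span.

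BIP4 (OS05G0428600) and BIP5 (OS08G0197700) are BiP copies known from rice plants under ER stress, where they are induced. BIP4 was at 228, 211 and 141 FPKM in dmd1 and at 139, 250.2 and 122 FPKM in wild type. BIP5 was at 132, 111 and 76.9 FPKM in dmd1 and at 76.1, 134 and 66.6 FPKM in wild type. For both genes dmd1 libraries 1 and 2 and wild-type library 2 formed the upper values and the other libraries the lower ones. The log2 changes were 0.22 ± 0.32 for BIP4 and 0.24 ± 0.32 for BIP5 (SE, adjusted p = 0.677 and 0.655 in limma), with 95% intervals of -0.55 to 1.00 and -0.53 to 1.00. Both genes passed with library weights (adjusted p = 0.0267 and 0.0333), a fit that gave dmd1 library 2 a weight of 9.13 against 0.471 and 0.438 for dmd1 libraries 1 and 3. In that fit 7511 of 25474 tested rows were higher and 3423 lower, a share beside which these 2 calls are to be read.

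BIP2 (OS03G0710500) and BIP3 (OS05G0367800) were close to the floor of the table and were not tested. BIP2 was at 2.89, 0.596 and 0.539 FPKM in dmd1 and at 0.227, 0.592 and 0.389 FPKM in wild type, so only dmd1 library 1 exceeded 1 FPKM. BIP3 was at 0, 0.117 and 0 FPKM in dmd1 and at 0.022, 0.277 and 0.02 FPKM in wild type. RefSeq lists a gene with the synonym BIP3 as a transcribed pseudogene, and lists those named BIP1, BIP2 and BIP4 as protein-coding.

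The proportions of the 3 expressed BiP genes were also set against each other within each library. BIP4 was at 0.559, 0.545 and 0.485 times the level of BIP1 in dmd1 libraries 1 to 3, and at 0.372, 0.389 and 0.308 times in wild-type libraries 1 to 3. The ratio of BIP5 to BIP1 was 0.323, 0.286 and 0.265 in dmd1 and 0.204, 0.209 and 0.168 in wild type. Both ratios lay higher in every dmd1 library than in any wild-type library, by 1.49 and 1.51 times on the geometric mean. These ratios do not depend on the scaling of a library. Among 7 pairs of expressed genes with the same role, these 2 and PDIL2-3 over PDIL1-1 did not overlap between genotypes. With 3 libraries against 3 an exact two-sided permutation test cannot go below p = 0.1, which all 3 pairs reached (adjusted p = 0.233 over the 7 pairs). A ratio to BIP1 wholly above wild type in dmd1 was found for 40.0% of all tested rows, a share beside which these ratios are to be read.

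**Figure D2:**
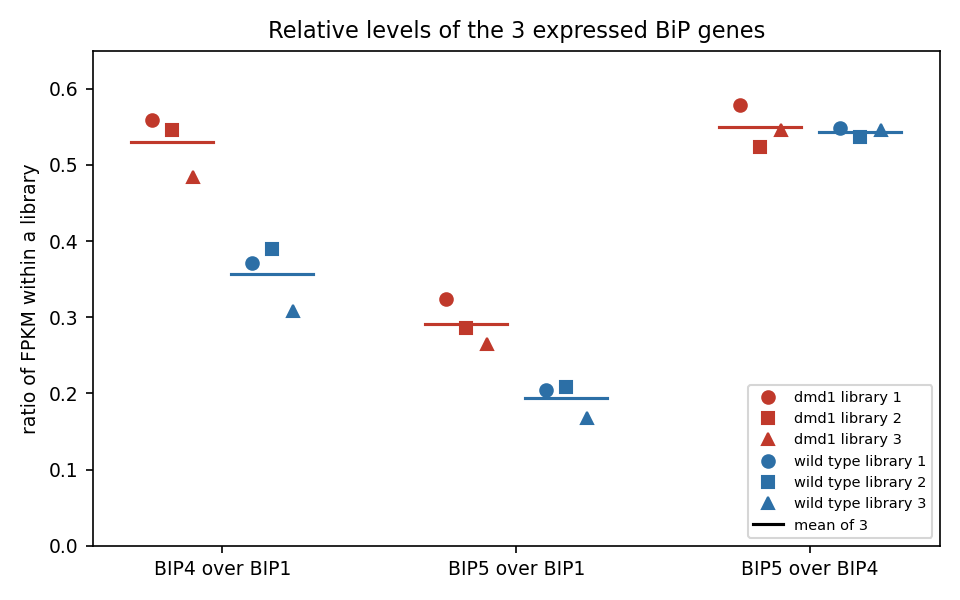
Ratio of FPKM between pairs of BiP genes within each library (axis from 0), for the 3 dmd1 and the 3 wild-type libraries, with a bar for the mean of 3. The ratios of BIP4 and of BIP5 to BIP1 do not overlap between genotypes, while BIP5 over BIP4 lies between 0.524 and 0.578 in all 6 libraries.

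BIP5 over BIP4 was nearly constant. The ratio averaged 0.549 ± 0.027 in dmd1 and 0.543 ± 0.006 in wild type (SD, n = 3 each; exact two-sided permutation p = 0.8). BiP genes are close paralogs. RSEM is listed as a tool, and the sources used here do not say how it was set for fragments that fit several copies. The separate levels of BIP1, BIP4 and BIP5 are therefore uncertain, and so are the ratios between them. Summed over the 5 copies, BiP was at 770.0, 709.6 and 509 FPKM in dmd1 libraries 1 to 3 and at 588, 1028 and 586 FPKM in wild-type libraries 1 to 3, with the highest value in wild-type library 2 and the lowest in dmd1 library 3.

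PDIL1-1 (OS11G0199200), the classical PDI that rice endosperm needs to sort its storage protein precursors, was the second most abundant of the 10. Its level was 851, 758 and 698 FPKM in dmd1 and 805, 1117 and 774 FPKM in wild type. Apart from wild-type library 2, the libraries of both genotypes lay between 698 and 851 FPKM. The log2 change was -0.21 ± 0.20 (SE, adjusted p = 0.527 in limma), with a 95% interval of -0.70 to 0.28. The sign turned with quantile normalization (log2 change 0.25).

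PDIL2-3 (OS09G0451500), a PDI family member of another subgroup, was at 113, 101 and 97.0 FPKM in dmd1 and at 99.0, 138 and 83.4 FPKM in wild type. The dmd1 values lay inside the wild-type range. Its log2 change of -0.01 ± 0.20 (SE, adjusted p = 0.974 in limma) had no stable sign, which turned under 7 of 18 alternatives. Relative to PDIL1-1 it was higher in dmd1, at 0.135 ± 0.003 times the PDIL1-1 level, against 0.118 ± 0.009 times in wild type (SD, n = 3 each). The ranges did not overlap, as for 36.2% of all tested rows set against PDIL1-1.

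ERO1 (OS03G0733800), the oxidase that recharges PDI, varied least of the tested genes. It was at 13.6, 12.2 and 13.1 FPKM in dmd1 and at 10.8, 12.4 and 12.7 FPKM in wild type. The highest library was only 1.11 times the lowest in dmd1 and 1.18 times in wild type. Its log2 change was 0.11 ± 0.12 (SE, adjusted p = 0.584 in limma), and the 95% interval from -0.18 to 0.40 was the narrowest of the 8. The ERO1 level was 0.0169 ± 0.0015 times that of PDIL1-1 in dmd1 and 0.0136 ± 0.0027 times in wild type, with overlapping ranges (exact two-sided permutation p = 0.3).

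CRT (OS07G0246200) was at 1162, 1160.3 and 1041 FPKM in dmd1 and at 969, 1166 and 739 FPKM in wild type. The dmd1 libraries sat together near the top of the wild-type range, and wild-type library 3 was the lowest. The log2 change of 0.25 ± 0.21 (SE, adjusted p = 0.47 in limma) was the highest of the 8 and did not pass, with a 95% interval of -0.26 to 0.76. CRT passed with quantile normalization (log2 change 0.70, adjusted p = 0.0438) and with library weights (0.41, adjusted p = 0.0465), and had a positive sign under all 18 alternatives. Of 25474 tested rows, 1964 were higher with quantile normalization and 7511 with library weights.

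CNX (OS04G0402100) was the most variable of the tested genes. It was at 499.6, 391 and 271 FPKM in dmd1 and at 264, 729.9 and 339 FPKM in wild type, so that the highest wild-type library was 2.77 times the lowest. The log2 change was -0.10 ± 0.42 (SE, adjusted p = 0.896 in limma), with the widest 95% interval of the 8, from -1.11 to 0.91. Without wild-type library 2 the log2 change was 0.33 (adjusted p = 0.472). CNX over CRT was 0.430, 0.337 and 0.260 in dmd1 and 0.272, 0.626 and 0.458 in wild type, and these ranges overlapped (exact two-sided permutation p = 0.4).

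Libraries of the same genotype differed in all 8 tested genes. The highest library was 1.11 to 1.85 times the lowest in dmd1 and 1.18 to 2.77 times the lowest in wild type. Wild-type library 2 held the highest value of 7 of the 8 tested genes, and dmd1 library 1 that of ERO1. The share of all tested rows that were highest in wild-type library 2 was not taken, so this count shows no trait of these genes. The lowest values fell in wild-type library 3 (4 genes), wild-type library 1 (2 genes) and dmd1 library 3 (2 genes). The median deviation of the 8 genes from their own means was 0.15, -0.01 and -0.27 log2 units in dmd1 libraries 1 to 3, and -0.15, 0.46 and -0.26 log2 units in wild-type libraries 1 to 3. Wild-type library 2 also had the largest FPKM total of the 6 libraries and dmd1 library 3 the smallest, and the part of these totals in the spread was not tested beyond the scaling alternatives.

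**Figure D3:**
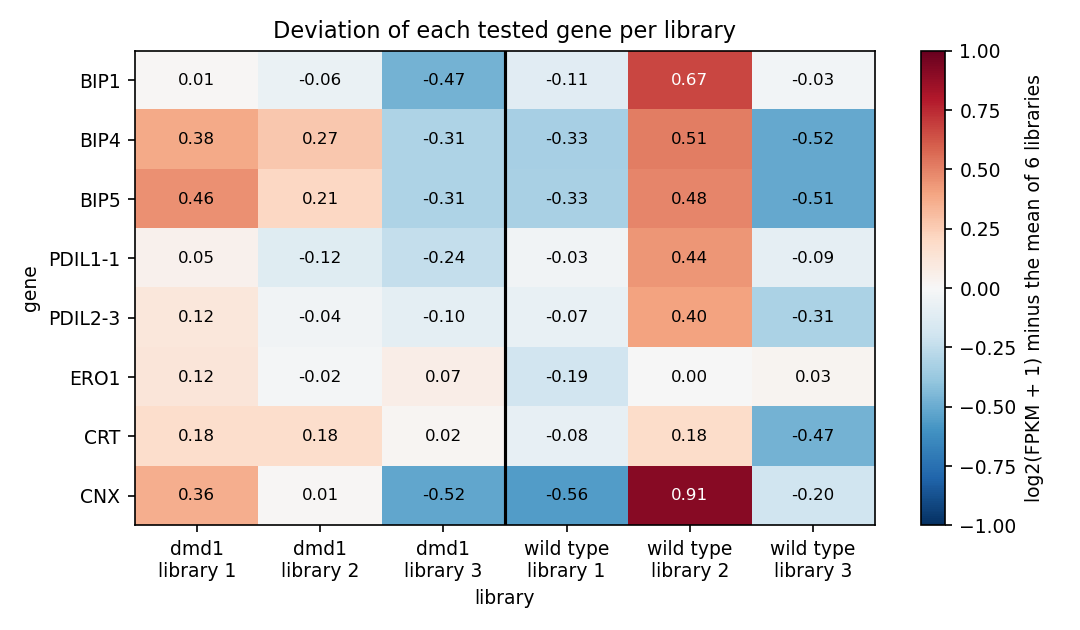
Deviation of log2(FPKM + 1) of each tested gene (rows) from its mean over the 6 libraries, by library (columns, dmd1 left of the line and wild type right of it), with the values printed. Wild-type library 2 has the highest value of 7 genes, while ERO1 hardly departs from its mean in any library.

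The genes were also compared within the sides of the library split, with dmd1 library 2, which lay between the sides, placed with dmd1 library 3. Between dmd1 library 1 and wild-type library 2 the log2 differences were -0.66 for BIP1, -0.39 for PDIL1-1, -0.55 for CNX, -0.13 for BIP4, -0.03 for BIP5, -0.29 for PDIL2-3, -0.01 for CRT and 0.12 for ERO1. Between dmd1 libraries 2 and 3 and wild-type libraries 1 and 3 they were -0.20 for BIP1, -0.12 for PDIL1-1, 0.12 for CNX, 0.40 for BIP4, 0.37 for BIP5, 0.12 for PDIL2-3, 0.38 for CRT and 0.10 for ERO1. BIP1 and PDIL1-1 thus had a negative and ERO1 a positive difference on both sides, and the other 5 genes turned sign. With dmd1 library 3 alone against wild-type libraries 1 and 3 the differences were -0.14 for CNX, 0.11 for BIP4, 0.11 for BIP5, 0.09 for PDIL2-3 and 0.30 for CRT, so that CNX no longer turned. The share of all tested rows that turned sign was not taken. With 1 or 2 libraries a genotype on a side, these are values with no test, and none of the 8 passed when dmd1 library 1 and wild-type library 2 were both left out. In that fit 1277 of 25474 tested rows were higher and 1149 lower.

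BIP1 and PDIL1-1 followed each other across the libraries. Over the 6 libraries Pearson's r of log2(FPKM + 1) was 0.97 for this pair, 0.89 for BIP1 with CNX and 0.94 for BIP1 with GRP94 (OS06G0716700), the ER form of HSP90. CRT ran with the calreticulin gene CRT2 (OS03G0832200, r = 0.95) and with BIP4 and BIP5 (r = 0.85 and 0.84). Its r was 0.27 with BIP1 and -0.40 with the calreticulin gene CRT3 (OS05G0507300). CRT2 and CRT3 were named after their values were seen. These coefficients describe 6 libraries that share depth and composition. Of 15742 OS rows with a mean of at least 5 FPKM, 4.96% reached an r of 0.9 with BIP1, 5.01% with PDIL1-1 and 1.35% with CRT. Among these rows PDIL1-1 ranked 134 by r with BIP1, GRP94 300 and CNX 906. By r with CRT, CRT2 ranked 44, BIP4 559, BIP5 610 and CRT3 13527. The rows most like BIP1 and PDIL1-1 were OS10G0483900 (r = 0.996) and OS09G0115500 (r = 0.999), which have no name in the sources used here.

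Around the 10 genes, 20 further genes of ER folding, ER-associated degradation and the unfolded protein response were listed, and 19 of them were tested. Of these 19, 4 rose in dmd1, none fell and 15 did not pass, against 7.80% and 5.18% of all tested rows. At an unadjusted p under 0.05, 7 were higher and 3 lower, against 20.4% and 10.9% of all tested rows. The median log2 change of the 19 was 0.23, beside 0.12 for all tested rows. The genotypes did not overlap for 6 genes above and 5 below wild type, against 25.3% and 13.1% of all tested rows. The 5 below were GRP94, IRE1, CRT3, BZIP60 (OS07G0644100) and BI1 (OS02G0125300), the last 3 named after their values were seen. None of the 5 passed. The log2 change was -0.59 for BI1 and -0.47 for CRT3 (limma adjusted p = 0.0925 and 0.0725). The untested gene, PDIL1-3 (OS02G0554900), was under 1 FPKM in every library. Only 1 of the rises reached a log2 change of 1, a size that, with an adjusted p under 0.05, 3.16% of all tested rows reached upwards and 3.54% downwards.

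The largest rise was in BZIP39 (OS05G0411300), which encodes a transcription factor that is held in the ER membrane and released under ER stress. It was at 109, 86.4 and 78.0 FPKM in dmd1 and at 35.2, 56.2 and 30.8 FPKM in wild type. Every dmd1 library exceeded every wild-type library, with a log2 change of 1.18 ± 0.25 (SE, adjusted p = 0.0329 in limma). BZIP50 (OS06G0622700), the target of IRE1, was at 42.1, 39.6 and 22.2 FPKM in dmd1 and at 36.8, 48.0 and 31.9 FPKM in wild type, with a log2 change of -0.20 ± 0.28 (limma adjusted p = 0.674). FPKM per gene does not separate spliced from unspliced BZIP50 mRNA. IRE1 (OS07G0471000) was at 10.1, 8.11 and 11.2 FPKM in dmd1 and at 13.8, 12.96 and 14.7 FPKM in wild type, lower in each dmd1 library but not passing (log2 change -0.46 ± 0.15, limma adjusted p = 0.0914). GRP94 was at 113, 109 and 105 FPKM in dmd1 and at 117, 145 and 119 FPKM in wild type, and did not pass (log2 change -0.21 ± 0.14, limma adjusted p = 0.332).

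The other 3 rises were in PDI family genes. PDIL1-4 (OS02G0100100) was at 107, 112 and 141 FPKM in dmd1 and at 60.8, 82.6 and 56.2 FPKM in wild type, with a log2 change of 0.85 ± 0.19 (SE, adjusted p = 0.0379 in limma). PDIL1-5 (OS06G0163400) was at 11.1, 9.53 and 10.9 FPKM in dmd1 and at 5.14, 5.48 and 5.85 FPKM in wild type, with a log2 change of 0.82 ± 0.13 (limma adjusted p = 0.014). PDIL5-4 (OS07G0524100) was at 54.7, 50.9 and 59.8 FPKM in dmd1 and at 33.1, 38.6 and 35.2 FPKM in wild type, with a log2 change of 0.62 ± 0.12 (limma adjusted p = 0.0267). In each of these genes the dmd1 libraries lay wholly above the wild-type libraries. PDIL2-2 (OS01G0339900) averaged 122 ± 5.43 FPKM in dmd1 and 79.1 ± 16.96 FPKM in wild type, and PDIL2-1 (OS05G0156300) 196 ± 15.2 FPKM in dmd1 and 128 ± 24.3 FPKM in wild type. Their log2 changes of 0.64 ± 0.17 and 0.62 ± 0.17 just missed the threshold (limma adjusted p = 0.0582 and 0.0611).

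Most of these calls changed when a single library was left out. BZIP39, PDIL1-4 and PDIL5-4 passed in 1 of 6 fits without a single library, the one without wild-type library 2, and were lost without any other library (adjusted p from 0.0577 to 0.112, 0.073 to 0.125 and 0.0711 to 0.103). PDIL1-5 was lost without dmd1 library 2 (adjusted p = 0.0549) or wild-type library 1 (0.0636). Without the filter on low values BZIP39 and PDIL1-4 were lost (0.0518 and 0.0579), with median-of-ratios scaling PDIL1-4 and PDIL5-4 (0.0528 and 0.0524), and with the replicate block BZIP39, PDIL1-4 and PDIL5-4 (0.0569, 0.0863 and 0.0801). Over the 6 fits without a single library the log2 changes stayed at 1.00 or above for BZIP39, 0.73 or above for PDIL1-4, 0.78 or above for PDIL1-5 and 0.56 or above for PDIL5-4. The tapetal, green tissue and late pollen marker sums given above were lower in every dmd1 library than in any wild-type library. Of the green tissue markers only CAB2R was itself lower in every dmd1 library. Such sums are led by their most abundant genes, and the part of the sums in these rises was not tested.

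**Figure D4:**
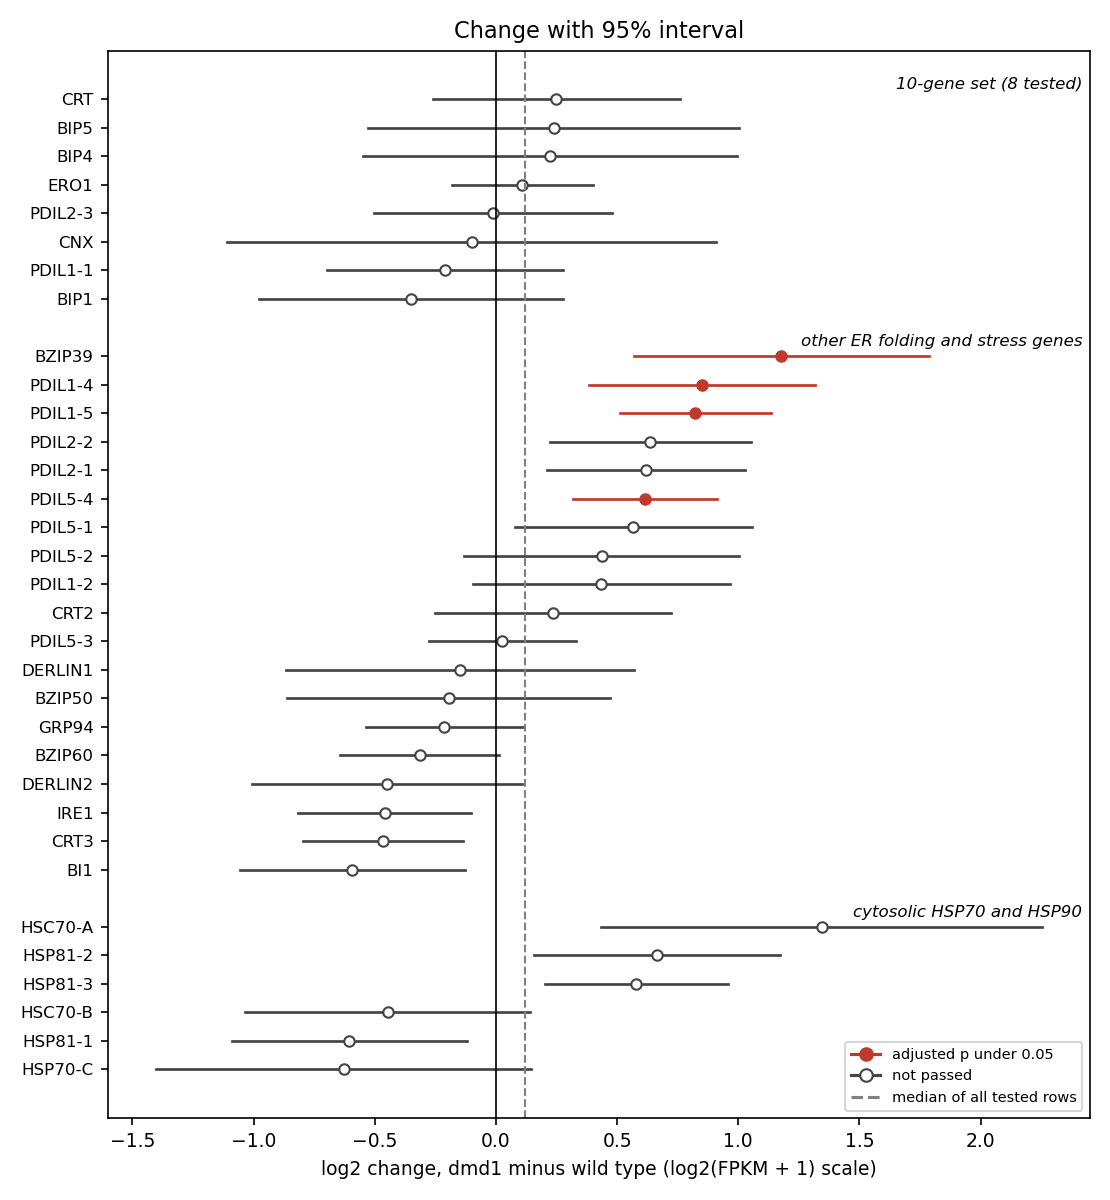
Log2 change (dmd1 minus wild type, log2(FPKM + 1) scale) with 95% interval for the 8 tested genes of the set, the 19 tested genes of the ER list and 6 cytosolic chaperone genes. Filled red points passed at an adjusted p under 0.05, the dashed line is the median of all tested rows, and the intervals of all 8 genes of the set include 0.

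Other PDI genes were set against PDIL1-1 within each library. All 9 tested PDI genes outside the set had a positive log2 change, a sign that 60.6% of all tested rows had, and 3 of the 9 passed. Relative to PDIL1-1 in the same library, 8 of the 9 were higher in every dmd1 library than in any wild-type library, against 36.2% of all tested rows. The ratio of PDIL1-4 to PDIL1-1 was 0.126, 0.147 and 0.202 in dmd1 and 0.0755, 0.0739 and 0.0726 in wild type. The ratio of PDIL5-1 (OS03G0287900, named after its values were seen) to PDIL1-1 was 0.14, 0.134 and 0.121 in dmd1 and 0.0745, 0.077 and 0.0771 in wild type. Exact two-sided permutation tests gave p = 0.1 for each of the 8, the smallest that 3 libraries against 3 allow, and an adjusted p = 0.113 over the 9 pairs.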

How the data were processed

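The deposited file holds FPKM values made by the authors, 1 column per library. The submitters' processing notes list IRGSP-1.0 as build and fastp, HISAT and RSEM as tools. The sources used here do not give versions, gene annotation, strandedness or filters. Since FPKM are no counts, neither a count model nor a counting interval applies. Column names matched the labels, no columns were left unmapped, and 0 pairs of libraries held identical values.

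Values were transformed to log2(FPKM + 1). Rows with at least 1 FPKM in at least 3 libraries entered a limma fit (version 3.58.1, R 4.3.3; lmFit, eBayes with trend and robust) of dmd1 minus wild type, without a replicate block, and the fit was tested on simulated data. The log2(FPKM + 1) scale understates changes of low genes. Alternatives varied the pseudocount, filter, scaling, spread model, library weights, replicate block, row type and libraries kept. Ratios within a library were compared with exact permutation tests (scipy 1.17.1). Both sets of ratio pairs were chosen after the values were seen.

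The 10 genes, the ER list, the cytosolic HSP70 and HSP90 list and the marker lists came from general knowledge, and were chosen with earlier results of these data known. Of the other ER genes, GRP94, IRE1, BZIP50 and up to 6 with the smallest p are named, and of the cytosolic list up to 2. OS10G0483900 and OS09G0115500 had the highest Pearson r with BIP1 and PDIL1-1. The other genes set beside BIP1 or CRT were taken from the 10 genes and the ER list, not by rank of r. No sequences or coordinates were used here.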

Additional observations from a re-analysis of the deposited data

How the results depend on the processing

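No member passed in any of the 6 fits without a single library (0 higher and 0 lower). Under 18 alternatives, 4 of 144 fits of a single gene of the set passed. The count of higher genes was 1 with quantile normalization (CRT) and 3 with library weights (BIP4, BIP5 and CRT), whose estimation stopped before it converged. Of all 25474 tested rows, 1964 and 7511 were higher in these fits. No gene of the set was lower under any of the 18. Signs turned for PDIL2-3, CNX and BZIP50 with equal totals (0.19, 0.10 and 0.0031) and library weights (0.12, 0.28 and 0.14), for PDIL2-3, CNX and PDIL1-1 with quantile normalization (0.075, 0.047 and 0.25), and for ERO1 with median-of-ratios scaling (-0.0028). Without dmd1 library 2 PDIL2-3 turned (0.0024), as did PDIL2-3, CNX and BZIP50 without dmd1 library 3 (0.033, 0.13 and 0.087), PDIL2-3 and CNX without wild-type library 2 (0.19 and 0.33), and the same 2 genes without that library and dmd1 library 1 together (0.12 and 0.12); none of these passed. Over the fits without a single library PDIL2-3 ran from -0.17 to 0.19, CNX from -0.41 to 0.33 and BZIP50 from -0.36 to 0.087. Relative to the median of all tested rows the log2 change of BIP1, the lowest of the 8, was -0.47, -0.44, -0.31 and -0.49 as reported, with equal totals, with quantile normalization and with median-of-ratios scaling. In the same 4 fits PDIL1-1 was at -0.33, -0.30, 0.19 and -0.35. BIP4 was at 0.10, 0.14, 0.24 and 0.09, and CRT at 0.13, 0.16, 0.64 and 0.11. These relative values were not tested.

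The 4 rises of the ER list became 2 without the filter on low values, 8 with equal totals, 7 with quantile normalization, 2 with median-of-ratios scaling and 10 with library weights, and ran from 0 to 6 without a single library. Falls were 2 with quantile normalization, 2 with median-of-ratios scaling and 4 with library weights. The cause was not tested. Same-numbered libraries had correlations of deviations of -0.35, -0.01 and 0.35, and dmd1 library 1 with wild-type library 2 had 0.49. With 3 libraries a genotype these values cannot show whether library numbers pair the samples. With the replicate block 1 gene of the ER list and none of the set passed. Over all tested rows, 1988 were higher and 1319 lower, against 1391 and 1002 without the filter, 3727 and 1278 with equal totals, 1964 and 1822 with quantile normalization, 1503 and 1931 with median-of-ratios scaling, 7511 and 3423 with library weights, 830 and 846 with the block, and 357 to 1852 and 342 to 1010 without a single library. Without dmd1 library 1 and wild-type library 2 together, 1277 rows were higher and 1149 lower. Fragment depth is unknown, so the precision of low values such as BIP2 and BIP3 cannot be given.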

Other observations

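The cytosol has its own HSP70 and HSP90 chaperones, and none of 6 such genes passed in either direction (limma, adjusted p from 0.0586 to 0.269), against 7.80% of all tested rows higher and 5.18% lower. At an unadjusted p under 0.05, 3 were higher and 1 lower, against 20.4% and 10.9% of all tested rows. The log2 change was positive for 3 of the 6, with a median of 0.07. The genotypes did not overlap for 3 genes above and 1 below wild type, against 25.3% and 13.1% of all tested rows. The gene below was HSP81-1 (OS08G0500700, named after its values were seen), with a log2 change of -0.61 (limma adjusted p = 0.0972). HSC70-A (OS11G0703900), a cytosolic relative of BiP, was at 2249, 1422 and 956 FPKM in dmd1 and at 489, 827 and 460.1 FPKM in wild type. Every dmd1 library exceeded every wild-type library, with a log2 change of 1.35 ± 0.38 (SE, adjusted p = 0.0649 in limma). HSC70-A passed under 5 of 18 alternatives. HSP81-3 (OS09G0482400), a cytosolic HSP90 gene, was at 485, 422 and 361 FPKM in dmd1 and at 279, 289 and 274 FPKM in wild type, with a log2 change of 0.58 ± 0.16 (SE, adjusted p = 0.0586 in limma). The difference in change between these genes and BIP1 was not tested.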
